A study of Mus musculus with 48 samples.

Results

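Circadian clock genes in mouse skin were followed in single mice and in the 9 study and treatment groups, as a check of sampling time and of treatment. Probesets were chosen by the gene symbol in the probe annotation, and 10 genes were sought: Arntl (Bmal1), Clock, Npas2, Per1, Per2, Per3, Cry1, Cry2, Nr1d1 and Dbp. All 10 were found, by 12 of the 38385 probesets on the array, out of 19147 genes named there. Clock had 3 probesets and each other gene had 1. By the RefSeq annotation of build GRCm38.p6, the activators lie at chr7:113178471-113314126 (Arntl), chr5:76209868-76305603 (Clock) and chr1:39193702-39363240 (Npas2). The Per genes lie at chr11:69095108-69109965, chr1:91415977-91459351 and chr4:150997018-151044707 (Per1 to Per3), the Cry genes at chr10:85131700-85185054 and chr2:92403646-92434085 (Cry1 and Cry2), Nr1d1 at chr11:98767932-98775377 and Dbp at chr7:45705100-45710203. The samples were labelled dorsal skin of C57BL/6 mice aged 8 weeks, taken after 14 days of treatment with a DGAT1 inhibitor or its vehicle. DGAT1 is an enzyme of the last step of triglyceride synthesis. Study 1 held vehicle, Cpd1 and Cpd2 with 8 mice each, Study 2 held vehicle, Cpd2 and Cpd6 with 4 mice each, and Study 4 held vehicle, Cpd6 and Cpd18 with 4 mice each. By the methods, all were male diet-induced obese mice on a high-fat diet, dosed by mouth and kept in cycles of light and dark, so vehicle mice were obese too. Cpd2 and Cpd6 were the skin-positive compounds, which gave sebaceous gland atrophy, and Cpd1 and Cpd18 were skin-negative. The labels give neither a dose nor a time of day, so levels could not be placed on a daily cycle. Nor do they say whether doses matched between compounds, and for its skin sections the study's text names a lower dose of Cpd1 than of Cpd2, so the comparison of those compounds may also be one of doses. Each sample was taken as 1 mouse, and p-values measure the spread between these samples.

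The clock is a feedback loop of transcription. ARNTL pairs with CLOCK, or with the related NPAS2, and the pair switches on genes through E-box elements, among them the Per, Cry and Nr1d genes and Dbp. PER and CRY proteins then return to the nucleus and repress the pair, and NR1D1 represses Arntl, so that Arntl peaks at about the opposite time of day to Nr1d1, Dbp and the Per genes. Skin has its own clock, in keratinocytes, hair follicle cells and dermal cells alike, and the time of day at which tissue is taken is a known source of differences between samples.

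Upstream sequences are shown for the members that held a clock motif. Of these 5, Per1, Per3, Cry2 and Nr1d1 rose with Cpd6 in Study 4, and the other, Cry1, did not pass the test there. Whether the motifs had a part in this was not tested. RefSeq promoters (build GRCm38.p6) were on hand for 9 of the 10 members, Per2, which rose as well, being the one without, and the 250 bases before each start were searched on both strands. The motifs were the E-box CACGTG, the related CACGTT, the D-box letters TTATGTAA and TTACGTAA, to which DBP and its relatives bind, and the ROR and NR1D1 element letters TAGGTCA and TGGGTCA. Matches are in capitals, 5′ to 3′ on the strand of the gene. For Per1 30 bases about the match are shown, since that start lies inside the annotated span of the gene, and for the others the bases outside that span.
Per1, chr11:69098771-69098800 (+ strand): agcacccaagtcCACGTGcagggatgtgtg
Per3, chr4:151044708-151044915 (- strand): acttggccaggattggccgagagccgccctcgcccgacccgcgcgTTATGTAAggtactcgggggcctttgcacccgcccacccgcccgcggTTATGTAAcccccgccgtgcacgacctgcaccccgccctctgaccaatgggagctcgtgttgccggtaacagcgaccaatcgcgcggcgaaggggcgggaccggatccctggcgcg
Cry2, chr2:92434086-92434319 (- strand): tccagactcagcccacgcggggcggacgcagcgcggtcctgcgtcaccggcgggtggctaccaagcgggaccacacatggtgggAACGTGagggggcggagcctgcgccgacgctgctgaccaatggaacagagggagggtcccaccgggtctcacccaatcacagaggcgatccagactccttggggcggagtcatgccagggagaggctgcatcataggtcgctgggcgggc
Nr1d1, chr11:98775378-98775627 (- strand): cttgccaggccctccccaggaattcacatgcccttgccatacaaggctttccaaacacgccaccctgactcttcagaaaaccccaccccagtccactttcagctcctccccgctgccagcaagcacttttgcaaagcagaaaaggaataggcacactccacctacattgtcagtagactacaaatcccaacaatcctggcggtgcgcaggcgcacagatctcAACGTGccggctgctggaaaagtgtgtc
Cry1, chr10:85185055-85185304 (- strand): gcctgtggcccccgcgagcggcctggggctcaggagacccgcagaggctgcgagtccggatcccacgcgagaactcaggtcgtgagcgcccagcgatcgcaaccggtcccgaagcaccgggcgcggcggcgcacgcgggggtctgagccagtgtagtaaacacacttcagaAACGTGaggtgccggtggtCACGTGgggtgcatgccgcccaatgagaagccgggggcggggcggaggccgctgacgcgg
Positions are counted from the start, with -1 the base before it. One of the 2 Per1 starts in RefSeq held CACGTG at position -166, the other held no match, and Cry1 held it at -60, while CACGTG was found in 6.02% of the 32851 promoters of the genome. CACGTT, read on the other strand as AACGTG, lay at -79 in Cry1, at -166 in Cry2 and at -28 in Nr1d1, and was found in 3.85% of all promoters. Per3 held TTATGTAA at -205 and at -158, a motif found in 0.819% of all promoters. TTACGTAA was found in 0.113%, TAGGTCA in 2.23% and TGGGTCA in 3.24% of all promoters, and in none of the members' windows. Arntl, Clock, Npas2 and Dbp held no match in these windows, which says only that these letters are absent from these 250 bases.

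All 10 members passed the intensity filter and were tested on the log2 scale with limma among 28789 probesets, and a gene was called at an adjusted p under 0.05. Levels of different probesets cannot be set against each other, since each has its own response. Keratinocyte differentiation markers averaged 11.83 to 12.61 (log2 intensity) over the 48 mice, a check of the label skin. The mean of 19 skeletal muscle markers was lowest in 3 Cpd2 mice of Study 1 (replicates 3, 4 and 7, from 5.76 to 7.52), followed by Cpd2 replicate 2 at 8.33 and Study 1 vehicle replicate 4 at 10.25. Vehicle replicate 4 of Study 1 was the lowest of its group for Clock (9.33), Cry2 (8.23), Nr1d1 (9.22) and Dbp (8.41), each past Dixon's 95% limit for a group of 8. It also had the lowest mean of adipocyte markers (9.93, the next mouse at 10.57) and of endothelium markers (7.93) and the highest of hair follicle markers (10.91) among all 48 mice. Skin holds many cell types, and in such bulk samples fewer cells of a type and less RNA per cell cannot be told apart.

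**Figure D1:**
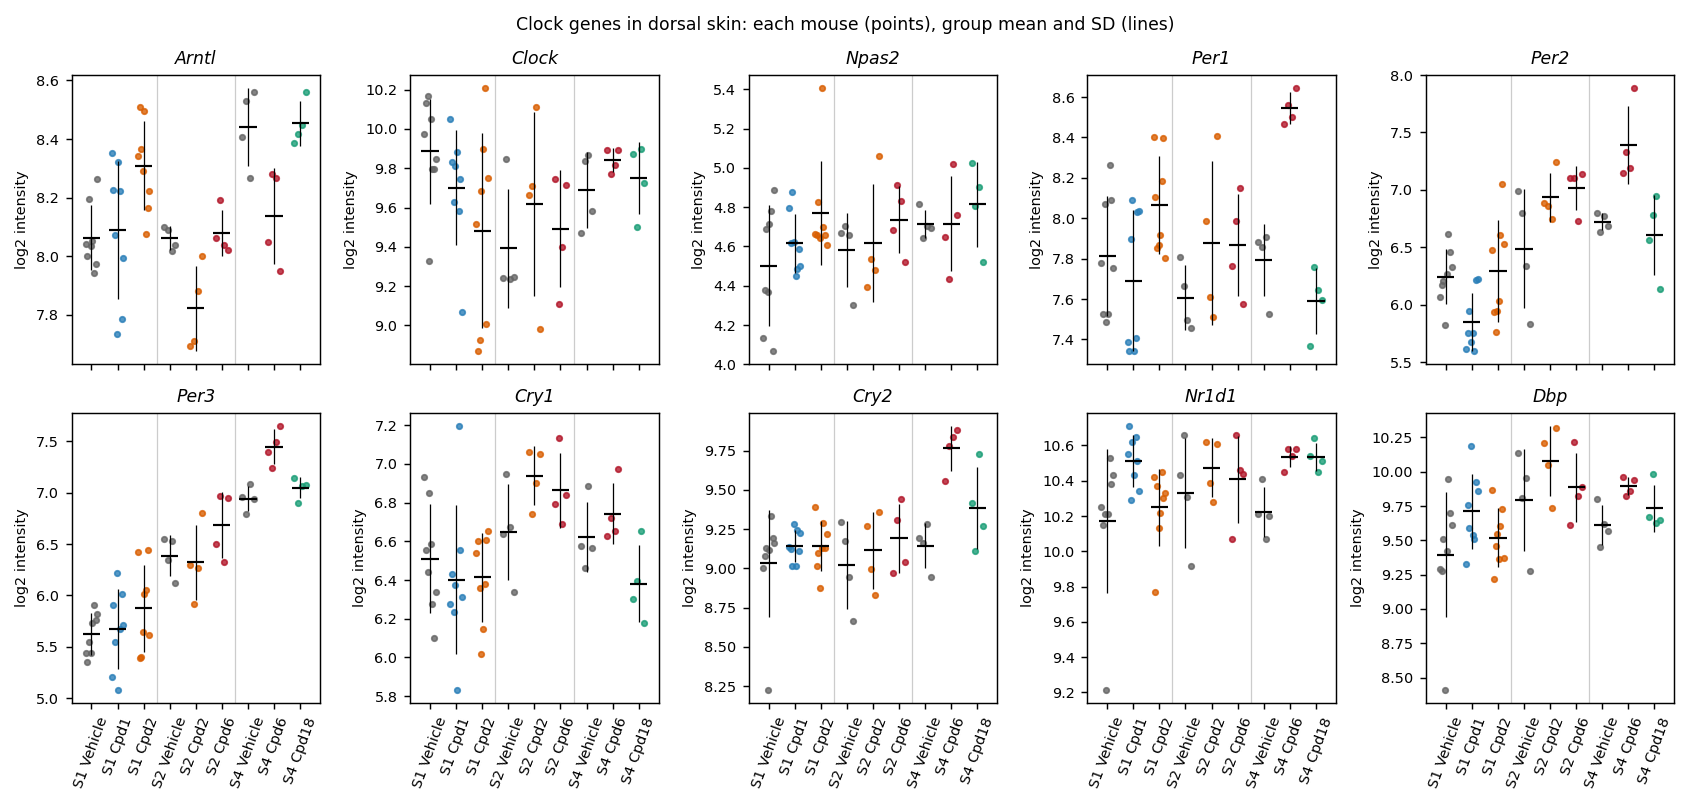
Log2 intensity (vertical axis) of the 10 clock genes in every mouse (points) of the 9 groups (horizontal axis; S1, S2 and S4 are the studies), with group mean (bar) and SD (line). The 4 Cpd6 mice of Study 4 lie at 8.47 to 8.65 for Per1, above all other mice of that study, and Per3 steps up from Study 1 to Study 2 to Study 4.

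Of the comparisons with vehicle, that of Cpd6 in Study 4 alone called any of the 10 members by their main probesets, and there 5 of 10 rose and none fell: Per1, Per2, Per3, Cry2 and Nr1d1. Of all 28789 probesets, 10.7% were called in that comparison. The median difference of the members was 0.30 on the log2 scale, against 0.012 over all probesets tested, and 9 of the 10 differences were above 0.

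The Per genes encode the repressors whose levels swing strongly over a day. Per1, which also responds quickly to light and to stress hormones, read 8.47, 8.56, 8.50 and 8.65 (log2 intensity) in the 4 Cpd6 mice and 7.88, 7.86, 7.91 and 7.53 in the 4 vehicle mice. The groups did not overlap, and the lowest vehicle mouse stood below the other 3. The difference was 0.75 on the log2 scale (SE 0.11, 1.68-fold, adjusted p = 0.00155). Per2 read 7.15, 7.33, 7.19 and 7.89 with Cpd6 and 6.80, 6.64, 6.78 and 6.68 with vehicle. One Cpd6 mouse was well above the others, all 4 were above every vehicle mouse, and the difference was 0.67 (SE 0.18, 1.59-fold, adjusted p = 0.0304). Per3 read 7.40, 7.24, 7.49 and 7.65 with Cpd6 against 6.95, 6.79, 7.08 and 6.94 with vehicle, a difference of 0.50 (SE 0.11, 1.42-fold, adjusted p = 0.0127). Here too the groups did not overlap. Without Cpd6 replicate 4 or without vehicle replicate 4, Per1, Per3 and Cry2 stayed called and Per2 and Nr1d1 did not, and in 1 fit over all 48 arrays Per1 and Cry2 alone were called. Per2 was also lost without Cpd6 replicate 2 or any 1 of the vehicle mice.

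Of the cryptochromes, the partners of PER in repression, Cry2 rose and Cry1 did not pass the test. Cry2 read 9.56, 9.78, 9.84 and 9.88 with Cpd6 and 9.19, 9.16, 9.28 and 8.95 with vehicle, with no overlap, and the difference was 0.62 (SE 0.12, 1.54-fold, adjusted p = 0.00764). Cry1 overlapped between the groups, at 6.63 to 6.97 with Cpd6 and 6.46 to 6.88 with vehicle, a difference of 0.12 (SE 0.13, adjusted p = 0.59). Nr1d1, the nuclear receptor that represses Arntl, read 10.45, 10.58, 10.54 and 10.58 with Cpd6 and 10.21, 10.41, 10.07 and 10.20 with vehicle. The difference was small but clear of overlap, 0.32 (SE 0.075, 1.25-fold, adjusted p = 0.0187). Dbp, an output transcription factor, read 9.96, 9.82, 9.86 and 9.94 with Cpd6 and 9.80, 9.45, 9.62 and 9.57 with vehicle. Its 4 Cpd6 mice were above all vehicle mice, with a difference of 0.28 (SE 0.093) that missed the threshold (adjusted p = 0.0631) and passed without vehicle replicate 1 and under both other scalings.

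The activators did not pass the test. Arntl read 8.05, 8.28, 8.27 and 7.95 with Cpd6 and 8.41, 8.53, 8.27 and 8.56 with vehicle, which overlapped through the lowest vehicle mouse, and the difference was -0.30 (SE 0.099, adjusted p = 0.0615). It was the single member below 0, and it was called lower under the 50th percentile filter and with array weights, as well as without vehicle replicate 3. The first Clock probeset differed by 0.15 (SE 0.10, adjusted p = 0.36) and Npas2 by 0.0028 (SE 0.15, adjusted p = 0.991).

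Other clock genes were taken from a list of 20, of which 18 were measured and 17 passed the filter. With Cpd6 in Study 4, 4 of the 17 rose and 1 fell, where 10.7% of all probesets were called. Tef and Hlf, the relatives of Dbp that bind the same D-box, rose by 0.35 (SE 0.10, adjusted p = 0.0397) and 0.34 (SE 0.079, adjusted p = 0.0167). Nfil3, which represses through the D-box, fell by 0.87 (SE 0.22, adjusted p = 0.0233), with all 4 Cpd6 mice below the vehicle mice. It read highest in vehicle replicates 1 and 4 (8.61 and 8.66), which also had the highest means of hair follicle markers (10.1 and 10.3). The part of hair follicle cells in Nfil3 was not tested. Usp2, a rhythmic ubiquitin protease, rose by 0.41 (SE 0.098, adjusted p = 0.0197), and Wee1, a cell cycle kinase under clock control, rose by 0.48 (SE 0.12, adjusted p = 0.0198). Nr1d2, a close relative of Nr1d1, differed by 0.18 (adjusted p = 0.201), Bhlhe41 by -0.22 (adjusted p = 0.316) and Ciart by 0.13 (adjusted p = 0.612), and these 3 did not pass the test.

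**Figure D2:**
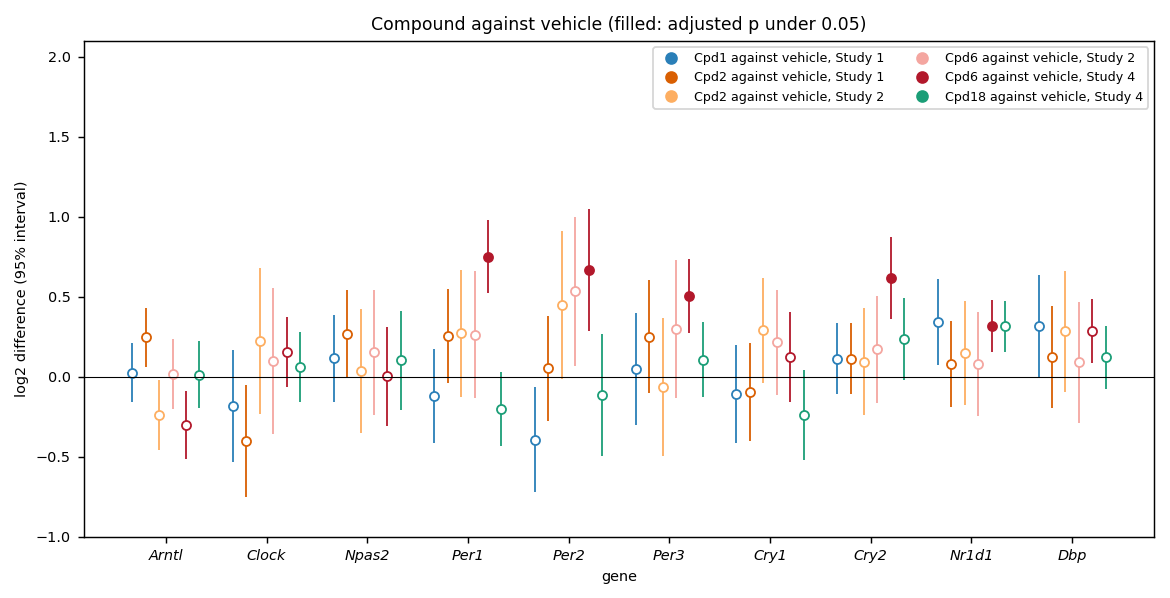
Log2 difference of each compound from the vehicle of its own study (vertical axis, points) with its 95% interval (lines) for the 10 clock genes (horizontal axis); filled points passed adjusted p under 0.05 in limma. The 5 filled points are all Cpd6 in Study 4, from 0.32 for Nr1d1 to 0.75 for Per1.

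Marker lists of other cell types moved in the same comparison. The mean log2 intensity of 10 growing hair follicle markers ran from 4.57 to 6.55 in the Cpd6 mice and from 4.75 to 10.3 in the vehicle mice, with 10 of 10 markers below 0 (median -4.26) and 3 called lower, Shh, Krt35 and Hoxc13. Krt35, a hair shaft keratin, averaged 2.20 with Cpd6, under the filter of 2.93. Sebaceous gland markers were called lower in 4 of 8, and their mean ran from 8.11 to 8.48 with Cpd6 and from 8.87 to 9.05 with vehicle. Of 7 differentiated keratinocyte markers 2, Krt1 and Lor, were called higher, and 4 of the 7 differences were above 0. Ivl (-0.35), Calm4 (-0.16) and Krtdap (-0.096) lay below 0 and were not called. The mean of the 7 ran from 12.47 to 12.53 with Cpd6 and from 12.45 to 12.56 with vehicle. Macrophage markers were called lower in 6 of 6 tested, and their mean ran from 6.97 to 7.24 with Cpd6 and from 7.69 to 8.11 with vehicle. Endothelium markers were called higher in 4 of 5, at 8.99 to 9.07 against 8.39 to 8.90, and skeletal muscle markers in 5 of 19, at 11.9 to 12.4 against 11.7 to 12.1. Of 12 immediate early genes, which also respond to handling, 3 (Egr2, Nr4a1 and Dusp1) were called higher, and the mean of the list ran from 8.67 to 9.62 with Cpd6 and from 8.48 to 8.94 with vehicle. Among 7 glucocorticoid response genes 1, Mt2, was called lower by limma, and 4 had an unadjusted p under 0.05. Of these, Mt2 (-0.50) and Mt1 (-0.19) lay below 0, and Zbtb16 (0.34) and Klf9 (0.29) above it. The mean of the 7 ran from 10.49 to 10.70 with Cpd6 and from 10.49 to 10.66 with vehicle. With the hair follicle score of each mouse as a covariate, Per1 alone stayed called, and the differences of Per2, Per3, Cry2 and Nr1d1 were 0.77, 0.57, 0.58 and 0.25 with adjusted p of 0.0964, 0.061, 0.0693 and 0.206. The part of the other marker lists in these differences was not tested, apart from skeletal muscle, where 4 members stayed called with the score as a covariate and Nr1d1 did not (0.33, adjusted p = 0.0591).

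Cpd6 and Cpd18, which the study placed in one structural series and which differ in their effect on skin, were compared directly in Study 4. Per1 was higher with Cpd6 and was the 1 member called, in a comparison where 0.49% of all probesets were called. It read 7.37, 7.76, 7.64 and 7.60 in the 4 Cpd18 mice, all below the 4 Cpd6 mice, and the difference was 0.95 (SE 0.11, 1.94-fold, adjusted p = 0.000255). Per2 differed by 0.78 (95% interval 0.40 to 1.16, adjusted p = 0.0821) and Per3 by 0.40 (0.17 to 0.63, adjusted p = 0.154), both with no overlap of mice. Arntl read 8.39, 8.42, 8.45 and 8.56 with Cpd18, above all Cpd6 mice, a difference of -0.32 (-0.53 to -0.11) that missed the threshold (adjusted p = 0.215). Nr1d1 was level between the compounds, with a difference of 0.0028 and an interval from -0.16 to 0.16. Among other clock genes, Wee1 was called higher with Cpd6, by 0.64 (SE 0.12, adjusted p = 0.0185). Hair follicle markers were lower with Cpd6 here too, with 10 of 10 below 0, a median of -3.61 and 0 called by limma, 10 of them at an unadjusted p under 0.05, and Per1 stayed called with their score as a covariate (1.00, adjusted p = 0.0015).

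Against vehicle, Cpd18 gave 0 of 10 members called by limma, 1 of them at an unadjusted p under 0.05, in a comparison where 0.00347% of all probesets were called. That member was Nr1d1, which read 10.54, 10.64, 10.45 and 10.51 with Cpd18, above all 4 vehicle mice, at a difference of 0.31 (SE 0.075, adjusted p = 0.215). Its difference was close in size to the 0.32 of Cpd6, and both compounds share the vehicle mice. Per1 differed by -0.20 (95% interval -0.43 to 0.029) and Cry1 by -0.24 (-0.52 to 0.042), and the other differences lay between -0.12 and 0.24. Macrophage markers ran from 7.08 to 7.50 with Cpd18, below the vehicle range as with Cpd6, with 6 of 6 below 0 and 0 called, 6 of them at an unadjusted p under 0.05.

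In Study 2 neither compound gave a called member. For Cpd6, 0 of 10 were called by limma, 1 at an unadjusted p under 0.05, where 0.379% of all probesets were called, and 10 of 10 differences were above 0 with a median of 0.16 (0.023 over all probesets). Per2 read 7.10, 7.10, 6.73 and 7.14 with Cpd6 and 6.99, 6.80, 6.33 and 5.83 with vehicle, which overlapped, and the difference was 0.53 (SE 0.22, adjusted p = 0.341). The vehicle mice spread over more than the difference itself. Per1 read 7.76, 7.98, 8.15 and 7.58 with Cpd6 and 7.81, 7.67, 7.50 and 7.46 with vehicle, a difference of 0.26 (SE 0.19, adjusted p = 0.654). The Cpd6 effect of Study 4 minus that of Study 2 was 0.49 for Per1 (SE 0.26, adjusted p = 0.697), 0.45 for Cry2 (SE 0.22, adjusted p = 0.634) and -0.32 for Arntl (SE 0.16, adjusted p = 0.634). Of 10 members 0 passed that test, 2 at an unadjusted p under 0.05, and 0% of all probesets were called, so the effect of Cpd6 was not shown to differ between the studies. Nfil3 read lower with Cpd6 in Study 2 as well, by -1.04 (SE 0.22, adjusted p = 0.0633), with all 4 mice below the vehicle mice. Those vehicle mice read 7.61, 7.84, 8.32 and 8.82, in the order of their hair follicle means of 4.91, 8.84, 9.89 and 10.8. The part of hair follicle cells in Nfil3 was not tested here either.

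For Cpd2 in Study 2, 0 of 10 members were called by limma, 1 at an unadjusted p under 0.05, where 0.129% of all probesets were called. Arntl read 7.69, 7.71, 7.88 and 8.00 with Cpd2 and 8.10, 8.09, 8.02 and 8.04 with vehicle, so that every Cpd2 mouse was below every vehicle mouse. The difference was -0.24 (SE 0.10, adjusted p = 0.619). Against Cpd2, Cpd6 had 0 of 10 members called, 1 at an unadjusted p under 0.05, where 0% of all probesets were called, and Arntl was 0.26 higher (SE 0.10, adjusted p = 0.515) with no overlap. Per3 differed by 0.37 between these compounds (95% interval -0.066 to 0.80). Hair follicle markers in Study 2 were below vehicle in 10 of 10 for both compounds, with medians of -3.25 for Cpd2 and -4.20 for Cpd6 and 0 called by limma, 10 at an unadjusted p under 0.05 for each. The part of these cells in the clock values was not tested in Study 2 beyond the covariate fit, which called 0 members.

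In Study 1, with 8 mice a group, Cpd2 gave 0 of 10 members called by limma, 2 at an unadjusted p under 0.05, where 13.1% of all probesets were called. Arntl ran from 8.08 through a median of 8.32 to 8.51 with Cpd2 and from 7.94 through 8.04 to 8.26 with vehicle. The groups overlapped, and the difference of 0.24 (SE 0.091) missed the threshold (adjusted p = 0.0763), while it passed with array weights (0.23, adjusted p = 0.0458) and without Cpd2 replicate 6 (0.28, adjusted p = 0.0457). In Study 2 the difference lay on the other side of 0, and the Cpd2 effect of Study 1 minus Study 2 was 0.48 for Arntl (SE 0.14, adjusted p = 0.0653). It passed under quantile normalization (0.51, adjusted p = 0.0447), with array weights (0.51, adjusted p = 0.0158), without vehicle replicate 4 (0.48, adjusted p = 0.0303), and without Study 1 Cpd2 replicate 6 or 8, Study 1 vehicle replicate 8 or Study 2 Cpd2 replicate 4. That test called 0 of 10 members, 2 at an unadjusted p under 0.05, and 0.726% of all probesets. The first Clock probeset ran from 8.87 through 9.60 to 10.2 with Cpd2 and from 9.33 through 9.91 to 10.2 with vehicle, a difference of -0.41 (SE 0.17, adjusted p = 0.123), and it passed without vehicle replicate 4 (-0.49, adjusted p = 0.0443) or Cpd2 replicate 6 (-0.51, adjusted p = 0.034). The second ran from 6.49 to 7.72 with Cpd2 and from 7.06 to 7.95 with vehicle, and its difference of -0.59 (SE 0.15, adjusted p = 0.0105) passed the test, so the 2 probesets of Clock disagree on the call and not on the direction. The third lay under the filter.

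Skeletal muscle markers were called lower with Cpd2 in 19 of 19 in that comparison, with a median of -2.54, sebaceous gland markers in 4 of 8 and endothelium markers in 2 of 5, and immediate early genes were called higher in 3 of 12. Without the 3 muscle-poor Cpd2 mice, 0 members were called, as with the muscle score as a covariate. Since 0 were called with all mice too, these counts cannot show a part of muscle. The second Clock probeset read 6.57, 7.27 and 6.81 in those 3 mice and 6.49 in Cpd2 replicate 2, next lowest in muscle. In Cpd2 replicates 1, 5, 6 and 8 it read 6.90, 7.44, 7.72 and 7.14, and the part of muscle in it was not tested. Differentiated keratinocyte markers were called higher in 6 of 7, with a median of 0.43, and their mean ran from 12.32 to 12.56 with Cpd2 and from 11.83 to 12.28 with vehicle. Among the 17 other clock genes 4 were called, where 13.1% of all probesets were. Hlf rose by 0.47 (SE 0.095, adjusted p = 0.00145) and Wee1 by 0.44 (SE 0.11, adjusted p = 0.00966), and Rora, an activator of Arntl, fell by 0.62 (SE 0.18, adjusted p = 0.0181) and Usp2 by 0.46 (SE 0.10, adjusted p = 0.00302). The part of these marker lists in the 4 was not tested.

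Cpd1 gave 0 of 10 members called by limma, 2 at an unadjusted p under 0.05, where 0.327% of all probesets were called. Nr1d1 ran from 10.3 through 10.5 to 10.7 with Cpd1 and from 9.22 through 10.2 to 10.5 with vehicle, a difference of 0.34 (SE 0.13, adjusted p = 0.255) that came to 0.21 without vehicle replicate 4 (adjusted p = 0.294). Dbp differed by 0.32 (SE 0.15, adjusted p = 0.382), and by 0.17 without that mouse (adjusted p = 0.553). Per2 ran from 5.60 through 5.76 to 6.22 with Cpd1 and from 5.83 through 6.24 to 6.62 with vehicle, a difference of -0.39 (SE 0.16, adjusted p = 0.279). Cpd2 against Cpd1 called 0 of 10 members by limma, 3 at an unadjusted p under 0.05, where 17.2% of all probesets were called. Per2 came nearest, at 0.45 (SE 0.16, adjusted p = 0.0534), and it passed without Cpd1 replicate 7 or 8 or Cpd2 replicate 2, 3, 4 or 5, followed by Per1 at 0.37 (SE 0.14, adjusted p = 0.0734), which passed without Cpd1 replicate 4 or 8, and Arntl at 0.22 (SE 0.091, adjusted p = 0.0955). Among the other clock genes, Wee1 was higher with Cpd2 than with Cpd1 by 0.73 (SE 0.11, adjusted p = 0.000126) with no overlap, Hlf was higher by 0.32 (adjusted p = 0.0219) and Usp2 lower, at -0.29 (adjusted p = 0.0474). In the same comparison muscle markers were called lower in 19 of 19 (median -2.30), sebaceous gland markers in 5 of 8 and endothelium markers in 4 of 5. Called higher were 1 other sebaceous gland marker, Krt79, and 6 of 7 differentiated keratinocyte markers (median of the 7 0.33). Hair follicle markers were below 0 in 10 of 10 (median -2.27), with 0 called by limma and 3 at an unadjusted p under 0.05. The part of these lists in the clock differences was not tested beyond the muscle and hair follicle covariates, which were fitted for the 10 members.

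Vehicle mice were compared between studies to see how far clock genes differed with no compound given. Per3 differed most. It ran from 5.35 through 5.64 to 5.91 in the 8 mice of Study 1, read 6.55, 6.35, 6.53 and 6.12 in Study 2, and 6.95, 6.79, 7.08 and 6.94 in Study 4, so that the 3 vehicle groups did not overlap. Study 4 was above Study 1 by 1.32 (SE 0.13, 2.49-fold, adjusted p = 5.89e-07), Study 2 above Study 1 by 0.76 (SE 0.13, adjusted p = 0.00396) and Study 4 above Study 2 by 0.55 (SE 0.15, adjusted p = 0.0112). Each of these differences was larger in size than the 0.50 of Cpd6 in Study 4, a contrast that was not tested.

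Arntl was higher in Study 4 vehicle mice than in those of Study 1 by 0.38 (SE 0.082, adjusted p = 0.00146) and of Study 2 by 0.38 (SE 0.094, adjusted p = 0.00751), with no overlap in either. The lowest mouse of Study 4 (8.266) was all but level with the highest of Study 1 (8.264). Study 2 and Study 1 were level, at -0.0015 (95% interval -0.17 to 0.17). Per2 was higher in Study 4 than in Study 1 by 0.48 (SE 0.18, adjusted p = 0.0448), a call that was kept without Study 1 vehicle replicate 6 or 7 and lost without any other single mouse, and under both other scalings. Per1, Cry2, Nr1d1 and Dbp, by contrast, differed between Study 4 and Study 1 by -0.018, 0.11, 0.049 and 0.22, none past the test. Arntl and Per3 were thus both higher in Study 4, with Per1, Nr1d1 and Dbp not called.

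In all, 3 of 10 members were called between Study 4 and Study 1, where 36.6% of all probesets were called, 2 of 10 between Study 4 and Study 2, where 21.7% were, and 1 of 10 between Study 2 and Study 1, where 6.21% were. The second Clock probeset was lower in Study 2 than in Study 1, at -0.60 (adjusted p = 0.0184), and lower in Study 4, at -0.96 (adjusted p = 3.43e-05), and the first was not called, at -0.49 (adjusted p = 0.0554) and -0.20 (adjusted p = 0.322), though it passed for Study 2 without Study 1 vehicle replicate 4 or Study 2 vehicle replicate 2. Of the other clock genes, 6 were higher in Study 4 than in Study 1: Rora (0.56), Hlf (0.60), Bhlhe40 (0.29), Arntl2 (0.52), Csnk1d (0.29) and Fbxw11 (0.35). Between Study 4 and Study 2, Rora (0.97) and Fbxw11 (0.50) were higher and Btrc lower (-0.47), and none was called between Study 2 and Study 1, where 7 had an unadjusted p under 0.05. Macrophage markers were called lower in 5 of 6 and immediate early genes higher in 4 of 12 between Study 4 and Study 1. Differentiated keratinocyte markers were called higher there in 5 of 7 (median 0.41), and of 8 sebaceous gland markers 3 were called lower and 1 higher. The part of these lists was not tested. Study, time of sampling, array batch and mouse cohort cannot be told apart in these comparisons.

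**Figure D3:**
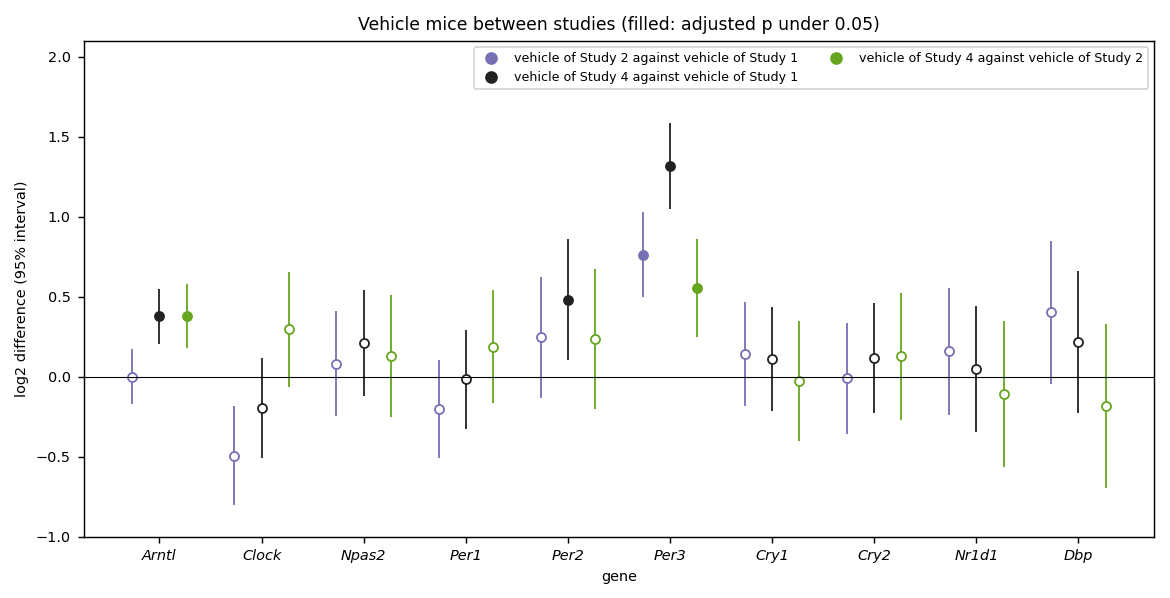
Log2 difference between the vehicle mice of each pair of studies (vertical axis, points) with its 95% interval (lines) for the 10 clock genes (horizontal axis); filled points passed adjusted p under 0.05 in limma. Per3 is filled in all 3 comparisons, at 0.76, 1.32 and 0.55, and Arntl in both that involve Study 4.

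Across the 9 groups, Cpd6 in Study 4 had the highest mean of Per1 (8.54 ± 0.078, SD, n = 4), Per2 (7.39 ± 0.34), Per3 (7.45 ± 0.17) and Cry2 (9.77 ± 0.14), and in each the step to the next group was larger than the larger SD of the pair. Below it neighbours mostly did not differ beyond their spread. For Per3 the next clear step lay between Cpd2 of Study 2 (6.32 ± 0.37, n = 4) and Cpd2 of Study 1 (5.87 ± 0.42, n = 8), which left the 3 groups of Study 1 lowest. For Per2, Cpd1 of Study 1 stood lowest (5.85 ± 0.25, n = 8), and for Arntl, Cpd2 of Study 2 (7.82 ± 0.15, n = 4), each by a step over the larger SD. Nr1d1 had no step over the SD of its neighbours, from 10.54 in Cpd6 of Study 4 to 10.17 in the vehicle of Study 1, and Dbp had none either, from 10.08 in Cpd2 of Study 2 to 9.40 in the vehicle of Study 1.

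As 1 number per mouse, Dbp and Per3 were set against Arntl and Npas2, each centred on its mean over the 48 arrays, and the difference of the sums was halved. This clock span is a description and was not tested, since its genes were chosen with results known. It holds Per3, so it repeats in part the called differences of Per3 with Cpd6 in Study 4 and between vehicle groups. It was -0.34 ± 0.30 (SD, n = 8) in vehicle, -0.23 ± 0.44 in Cpd1 and -0.41 ± 0.39 in Cpd2 of Study 1. In Study 2 it was 0.20 ± 0.20 (n = 4) in vehicle, 0.42 ± 0.18 in Cpd2 and 0.31 ± 0.25 in Cpd6. In Study 4 it was 0.13 ± 0.15 (n = 4) in vehicle, 0.19 ± 0.082 in Cpd18 and 0.68 ± 0.18 in Cpd6, whose lowest mouse, at 0.47, was above the highest of the other 8 mice of that study, at 0.30. Within a group of Study 1 mice spread more widely than group means of that study did, from -0.87 to 0.46 in Cpd1.

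**Figure D4:**
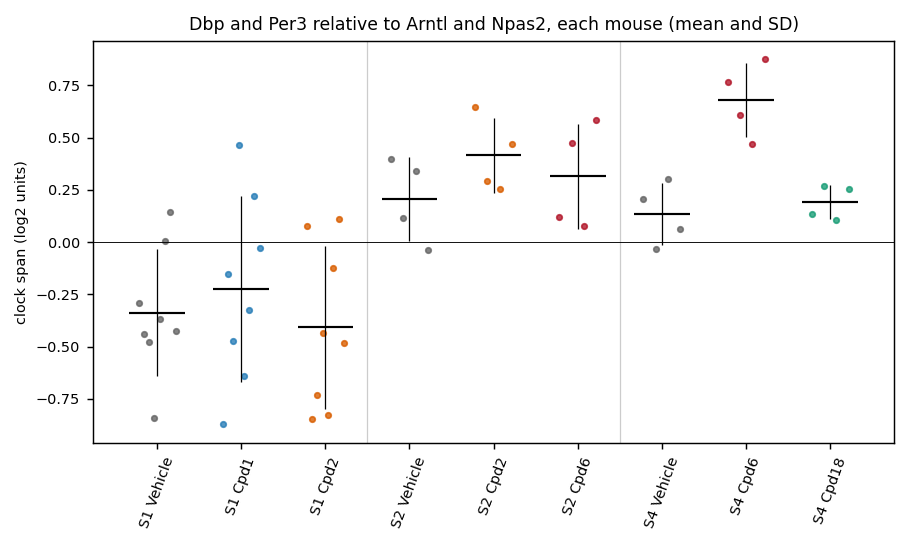
Clock span in log2 units (vertical axis) for every mouse (points) of the 9 groups (horizontal axis), with group mean (bar) and SD (line). Study 1 mice lie between -0.87 and 0.46, and the 4 Cpd6 mice of Study 4 between 0.47 and 0.88.

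Over all mice, deviations from the group mean gave a Pearson r of Arntl of -0.35 with Per1, -0.35 with Per2, -0.35 with Per3 and -0.31 with Dbp, and Spearman rho of -0.36, -0.37, -0.26 and -0.37 (48 mice). Of 9 relations tested by permutation within groups, 3 had a raw p under 0.05 (Per1 0.0477, Per2 0.0159 and Dbp 0.0306), and 0 passed after adjustment over the 9, with the lowest adjusted p at 0.117 for Pearson r and 0.0703 for rho. Without the 2 mice farthest from the median of Arntl, r was -0.35, -0.34, -0.36 and -0.30. Npas2, the other activator, went with Arntl at r = 0.27 (rho 0.21, adjusted permutation p = 0.127 and 0.323), and Nr1d1 at -0.01 (rho -0.0093, adjusted permutation p = 0.932 and 0.951).

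The sign of these relations was not the same in the 3 studies. Within Study 1 (24 mice) r was -0.57 with Per1, -0.50 with Per2, -0.54 with Per3 and -0.44 with Dbp, each with an adjusted permutation p of 0.0423, and rho was -0.61, -0.57, -0.48 and -0.55 with adjusted permutation p of 0.0267, 0.0267, 0.0663 and 0.0274. Without the 2 mice of that study farthest from its median of Arntl, r was -0.41, -0.62, -0.36 and -0.27 and only Per2 still passed (adjusted permutation p = 0.0481). The relations with Per1, Per3 and Dbp kept their sign. Leaving out those mice also narrows the range of Arntl, so it cannot show whether these relations rest on them. Within Study 4 (12 mice) r was -0.32, -0.56, -0.60 and -0.45, and within Study 2 (12 mice) it was 0.49, 0.40, 0.63 and 0.27. Spearman rho was -0.42, -0.49, -0.50 and -0.50 in Study 4 and 0.37, 0.36, 0.45 and 0.26 in Study 2. Of 9 relations 0 passed in either study, with lowest adjusted permutation p of 0.232 for r and 0.366 for rho in Study 4 and of 0.166 and 0.308 in Study 2, both the latter for Npas2. Without the 2 farthest mice of each, r was -0.36, -0.47, -0.45 and -0.40 in Study 4 and 0.64, 0.52, 0.54 and 0.64 in Study 2. The difference between the studies was not tested.

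**Figure D5:**
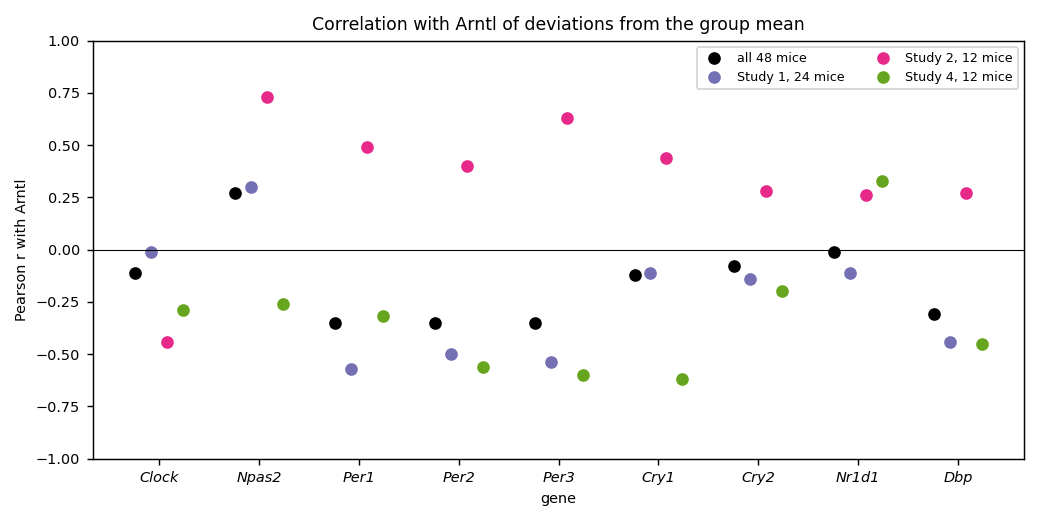
Pearson r of the deviation from the group mean of Arntl with that of each other clock gene (vertical axis) for the 9 genes (horizontal axis), over all 48 mice and within each study (colours). Per1, Per2, Per3 and Dbp lie below 0 over all mice and in Studies 1 and 4, and above 0 in Study 2.

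Some pairs of members other than Arntl went together more closely. As a description over the 48 mice, whose values on one array share its normalization, r was 0.75 between Nr1d1 and Dbp, 0.75 between Cry2 and Nr1d1, 0.68 between Cry2 and Dbp, 0.65 between Per1 and Dbp and 0.63 between Per3 and Dbp. The Per genes had r of 0.53 to 0.56 with each other. Per2 had r of 0.57 with Dbp, and Per1 and Per2 had 0.53 and 0.51 with Cry2. Pairs that held Clock, Npas2 or Cry1 were no closer than those of Arntl. Clock had r of -0.32 with Per1 and -0.06 with Dbp, and Npas2 reached 0.31 at most, with Cry2. Cry1 had its highest r with a member at 0.23, with Per3. Every r here includes Study 1 vehicle replicate 4, which was low in Cry2, Nr1d1 and Dbp. Among all named genes above the filter, those most like Arntl by r of the deviations were Tec (0.70), Foxp4 (0.65), Ssh3 (0.63), Fdps (0.63) and Ubac2 (0.62), and those most opposite were Ap3b2 (-0.56), Atm (-0.55), Tjp1 (-0.55), Ccdc153 (-0.54) and Disp3 (-0.54). For Dbp the highest were Pnpla7 (0.83), Psapl1 (0.81), Atf7 (0.79), Tns2 (0.79) and Ttc7 (0.78), and the lowest Arl15 (-0.83), Dhx9 (-0.82), Zdhhc21 (-0.77), Trmt6 (-0.76) and Tom1l1 (-0.75). No clock gene was among the 20.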

How the data were processed

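Skin RNA of 48 mice was measured, with 1 custom Affymetrix array per mouse. The authors made the deposited values with the RMA algorithm (version not given), a method of background correction, normalization across arrays and summary over the probes of a set. The deposited table holds linear intensity values from 1.6 to 13570, with array medians from 26.4 to 30.8. Groups and replicate numbers were taken from the sample titles. Each study was fitted by itself on the log2 of the intensities, its 3 groups having a mean each and the prior variance following intensity (limma 3.58.1, R 4.3.3). Vehicle groups were compared in a fit of the 16 vehicle arrays, and differences between studies in an effect in a fit of all 48. Probesets under the 25th percentile of mean log2 intensity (2.93) were left out, and p-values were adjusted by Benjamini-Hochberg over the 28789 left. The number of arrays limits the precision. All 10 members are named, each by its probeset of highest mean. From the list of other clock genes, Nr1d2, Tef, Hlf, Nfil3, Bhlhe41 and Ciart are named always, and any other where called. For Arntl and Dbp, the 5 genes of highest and the 5 of lowest r are named. Relations among mice used 100000 permutations within groups, two-sided. The members and gene lists were chosen with earlier results of these data known. Replicate numbers were not taken to pair mice. Correlations between same-numbered mice of a study ran from -0.438 to 0.379, which does not exclude a pairing. Their medians were -0.0379, -0.0298 and 0.108 in Studies 1, 2 and 4, against 0.0146, 0.0103 and -0.0443 between mice of other numbers. Alternatives were another filter, scaling, array weights, the replicate block, 1 fit over all arrays, the methods' test and thresholds, marker scores as covariates, and leaving out mice. The fits were tested on simulated data.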

Additional observations from a re-analysis of the deposited data

Results flagged for a closer look

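In 99 sets (the 10 genes and the clock span, in each of 9 groups), 10 had a mouse whose gap to its nearest neighbour took up more of the group's range than Dixon's 95% limit, where chance gives about 1 in 20. Study 1 vehicle replicate 4 was the lowest of 8 mice for 4 of the genes, with log2 intensity of 9.33 for Clock, 8.228 for Cry2, 9.216 for Nr1d1 and 8.412 for Dbp. In Study 1, Npas2 was high in Cpd2 replicate 5, at 5.408. In Study 2, Clock was high in vehicle replicate 2, at 9.848, Npas2 was low in vehicle replicate 4, at 4.302, and Per2 was low in Cpd6 replicate 3, at 6.733. In Study 4, Per1 was low in vehicle replicate 4, at 7.526, and Dbp was high in Cpd18 replicate 2, at 9.987.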

How the results depend on the processing

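The count of called members was 0 under every alternative run for Cpd2 against vehicle, Cpd6 against vehicle and Cpd6 against Cpd2 in Study 2, and for the Cpd6 difference between studies, and no result changed direction past the test. For Cpd6 against vehicle in Study 4 (5 members), the count was 2 in 1 fit over 48 arrays, 3 with the methods' test after adjustment, 1 with the hair follicle covariate (Per1) and 3 to 5 without 1 mouse. It was 4 with the muscle covariate, 6 each under equal array medians and quantile normalization (with Dbp), and 7 each under the 50th percentile filter, array weights and the thresholds of the methods (with Dbp, and Arntl lower). For Cpd6 against Cpd18 (1), it was 0 with the methods' test after adjustment and 5 at the thresholds of the methods. For Cpd18 against vehicle (0) it was 1 at those thresholds. For Cpd1 against vehicle (0) it was 1 with the hair follicle covariate (Nr1d1). For Cpd2 against vehicle in Study 1 (0), it was 2 with array weights, 1 each in the fit over 48 arrays, with the methods' test after adjustment and with the second Clock probeset, and 0 to 2 without 1 mouse. For Cpd2 against Cpd1 (0), it was 1 each under the 50th percentile filter, with the replicate block and at the thresholds of the methods, 2 each under quantile normalization, array weights and the hair follicle covariate (there Nr1d1 and Dbp), 3 in the fit over 48 arrays, and 0 to 2 without 1 mouse.

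For vehicle of Study 2 against Study 1 (1), the count was 2 each under the 50th percentile filter, equal array medians, array weights, the replicate block, the thresholds of the methods, the hair follicle covariate and the second Clock probeset, 3 with the muscle covariate, and 1 to 2 without 1 mouse. Per3 was among the members called in each. For Study 4 against Study 2 (2) it was 1 in the fit over 48 arrays, and for Study 4 against Study 1 (3) it was 2 to 3 without 1 mouse, 2 each with no filter, equal array medians, quantile normalization and the thresholds of the methods (Per2 lost), and 4 each with array weights, the replicate block and the second Clock probeset. For the Cpd2 difference between studies (0), it was 1 each under quantile normalization and the thresholds of the methods, 2 with array weights, and 0 to 1 without 1 mouse. The replicate block gave 4 members for Cpd6 against vehicle in Study 4, though the numbers were not taken to pair mice. For the relations of Arntl (0 of 9), 4 passed within Study 1.

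Chosen after seeing the data were the methods' test at the methods' thresholds, with counts of 1 for Cpd1 and 1 for Cpd18 against vehicle and 2 for Cpd6 against Cpd18, and the relations within Study 1 without its 2 farthest mice, where 1 passed. The causes of these changes were not tested.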
